A study of Mus musculus with 6 samples.

Results

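The fibroblast growth factor (FGF) system was examined through 10 genes chosen by name: the secreted ligands Fgf1, Fgf2, Fgf7, Fgf9, Fgf16 and Fgf18, the intracellular FGFs Fgf12 and Fgf13, and the receptors Fgfr1 and Fgfr2. They were 10 of the 54532 gene identifiers in the expression table, and all 10 were found in it. Messenger RNA was sequenced from 6 cultures of primary cardiac myocytes prepared from neonatal mouse hearts, 3 labelled AdGFP and 3 labelled AdCre. All 6 came from mice carrying an engineered Rit1 locus that expresses the M90I variant once Cre recombinase has acted on it. Rit1 encodes a small GTPase of the RAS family, and variants of it cause Noonan syndrome, in which the heart is often enlarged. On day 3 after isolation the AdGFP cultures (genotype label Rit1 +/+) received an adenovirus encoding green fluorescent protein, and the AdCre cultures (genotype label Rit1 M90I/+) received one encoding GFP together with Cre. The RNA was from day 6 after delivery of the virus. Because no wild-type culture received Cre, effects of the variant cannot be told apart from those of the recombinase. The neonates were days old, and cells of several hearts were digested together, enriched for myocytes by letting other cells attach first, plated at about a heart's worth of cells per well and kept in medium with serum. The comparison of AdCre with AdGFP asks which transcripts differ in level once the variant allele is expressed.

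FGFs fall into a secreted and an intracellular class. Secreted FGFs bind receptor tyrosine kinases together with heparan sulfate, and the receptors act through the adaptor FRS2 and GRB2 on RAS, RAF and the MAP kinases, which induce feedback inhibitors such as the Sprouty proteins and transcription factors such as ETV4 and ETV5. The intracellular FGFs are not secreted and do not act through these receptors, but bind the tails of voltage-gated sodium channels and tune cardiac excitability. In the heart, FGF9 and FGF16 are known for supporting myocyte growth in development, FGF2 is known for its part in hypertrophy and repair, and FGFR1 is the receptor usually ascribed to cardiac myocytes.

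The libraries held 25280637 to 26545550 recovered gene reads in AdGFP and 25978097 to 32433218 in AdCre. Rit1 itself was measured at 7.66, 8.99 and 9.01 FPKM, a level scaled for exon length and for library size, in AdGFP and at 8.90, 9.10 and 9.58 FPKM in AdCre, which does not tell the alleles apart. Cardiomyocyte markers were abundant, with 10 of 10 above the level filter, and fibroblast markers were abundant too. The summed level of the 10 cardiomyocyte markers was 7020.82, 5315.46 and 4292.88 FPKM in AdGFP replicates 1 to 3 and 2401.05, 3830.95 and 2260.09 FPKM in AdCre. Actc1, the cardiac actin, made up most of this sum in every culture but AdCre replicate 1, at 2685.52 to 4943.09 FPKM in AdGFP and 1185.79 to 2236.20 FPKM in AdCre. The groups did not overlap for the sum and for 5 of the 10 markers. They overlapped for the other 5 and for the mean log2 level of the 10. Of all genes above the level filter 15.4% did not overlap, and 8.02% did so with AdCre lower. Over the 10 fibroblast markers, led by Col1a1 with most of each sum, the sums were 2674.92 to 4731.22 FPKM in AdGFP and 2391.23 to 3432.90 FPKM in AdCre, lower in AdCre in all 3 comparisons of equal replicate numbers. On average 8 of these 10 were lower in AdCre, with a median log2 fold change of −0.39, and 0 were called without and 4 with a replicate block (1 higher, 3 lower). In bulk RNA, fewer cells of a type and less RNA per cell cannot be told apart.

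Of the 9 FGF genes that passed the level filter (a mean of at least 0.5 FPKM over the 6 cultures), 7 were lower and 2 higher in AdCre on average, where 50.4% of all tested genes were lower. Their median log2 fold change was −0.42, against −0.0022 over all 13794 genes tested. The genes lower in AdCre in all 3 comparisons of cultures with the same replicate number were Fgf12, Fgf13, Fgf16, Fgf18 and Fgfr2, which makes 5 of 9, while 24.5% of all tested genes were lower in all 3. None was higher in all 3, against 23.9% of all tested genes. In the limma fit without a replicate term 0 of the 9 passed an adjusted p of 0.05, where 0.00725% of all tested genes did (1 gene of 13794), and 1 of the 9 had an unadjusted p under 0.05, against 10.2% of all tested genes. The voom fit on recovered reads without a replicate term also called 0 of the 9.

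With the replicate number as a block in the same fit, 2 of the 9 passed, Fgf16 and Fgf18, both lower in AdCre. Across all tested genes 6.15% passed in that fit and 3.51% passed as lower. At an unadjusted p under 0.05 the blocked fit held 5 of the 9, all lower, where the share of all tested genes was 24.7% in either direction and 13.3% lower. The blocked calls lay close to the threshold and moved with the settings. Leaving out any 1 replicate number left 0 of the 9 called. The blocked voom fit on recovered reads called Fgf12 and Fgfr2 in place of Fgf16 and Fgf18. Across all genes that voom fit called 1741 of 13788, 739 of them lower in AdCre.

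**Figure D1:**
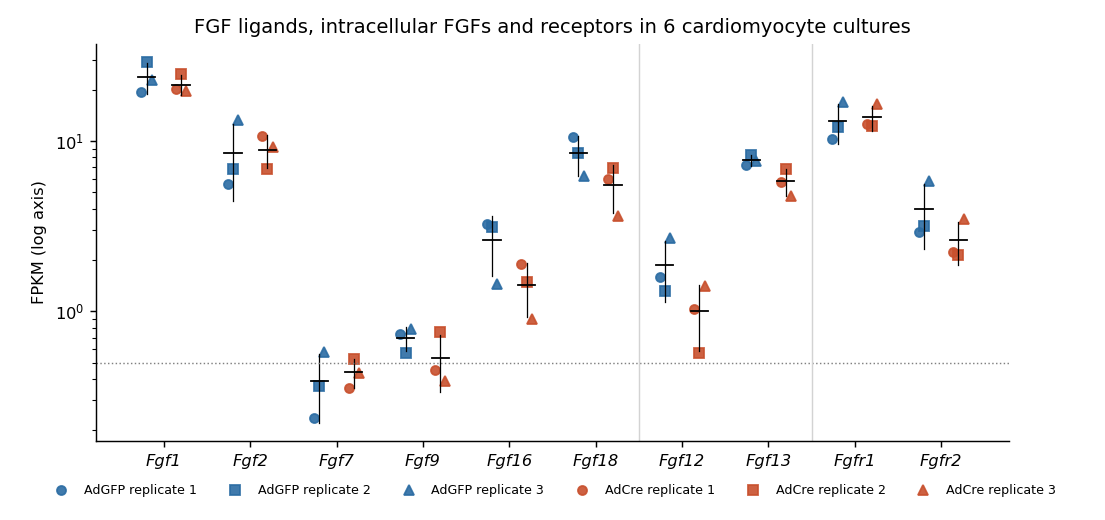
FPKM of the 10 FGF genes (log axis) in each of the 6 cultures, with AdGFP in blue and AdCre in orange, the replicate number given by the symbol, black bars for means and thin lines for the SD (n = 3 per group). The dotted line marks the filter of 0.5 FPKM. Fgf1 and Fgfr1 had the highest means in both groups, Fgf7 and Fgf9 the lowest, and Fgf13 was the gene whose groups did not overlap.

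Because FPKM is scaled by exon length, levels can be ordered between genes. In AdGFP the order of the means was Fgf1 (23.7 FPKM), Fgfr1 (13.1), Fgf2 (8.54), Fgf18 (8.44), Fgf13 (7.71), Fgfr2 (3.97), Fgf16 (2.62), Fgf12 (1.87), Fgf9 (0.695) and Fgf7 (0.392). Among neighbours in that order, the AdGFP samples did not overlap for Fgf1 against Fgfr1, for Fgf13 against Fgfr2, and for Fgf12 against Fgf9, and overlapped for every other pair. In AdCre the same order held except that Fgf13 (5.80 FPKM) stood above Fgf18 (5.51 FPKM), whose samples overlapped.

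The secreted ligands differed widely in level. Fgf16 encodes a secreted ligand of the FGF9 subfamily and has 1 transcript in the annotation (mm10, chrX:105764279-105774939, plus strand). It was measured at 3.27, 3.14 and 1.46 FPKM in AdGFP and at 1.90, 1.48 and 0.900 FPKM in AdCre. AdGFP replicate 3 was the low AdGFP culture and fell inside the AdCre range. The means were 2.62 ± 1.01 and 1.43 ± 0.502 FPKM (SD, n = 3 each), on 41 to 133 reads per library. The log2 fold change on the log2(FPKM + 0.1) scale was −0.81 (SE 0.38, 95% interval −1.71 to 0.10, limma adjusted p = 0.544). It was −0.53 without AdCre replicate 3. Within the replicate numbers the log2 differences were −0.75, −1.03 and −0.64, and the blocked limma fit gave an adjusted p of 0.0414. Without replicate 1, 2 or 3 the blocked adjusted p was 0.0793, 0.178 or 0.121, and the blocked voom fit gave 0.0523.

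Fgf18 encodes a secreted ligand known best from bone and lung development (chr11:33117430-33147400, minus strand). Its values were 10.6, 8.54 and 6.19 FPKM in AdGFP and 5.97, 6.95 and 3.62 FPKM in AdCre, on 119 to 311 reads. AdCre replicate 2 lay above AdGFP replicate 3, and the other AdCre cultures lay below every AdGFP culture. The fitted log2 fold change was −0.62 (SE 0.29, 95% interval −1.31 to 0.06, limma adjusted p = 0.535). Without AdCre replicate 3 it was −0.35. The 3 within-number differences were −0.82, −0.29 and −0.76, and the blocked limma fit gave an adjusted p of 0.0499. That value was 0.0997, 0.0649 or 0.197 without replicate 1, 2 or 3 and 0.0633 in the blocked voom fit.

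Fgf16 and Fgf18 were ordered across the cultures much as the cardiomyocyte markers were. The mean log2 deviation of the 10 cardiomyocyte markers from their 6-sample mean was 0.53, 0.54 and 0.08 in AdGFP and −0.46, 0.12 and −0.80 in AdCre. The corresponding deviations of Fgf16 were 0.80, 0.74 and −0.32 in AdGFP and 0.04, −0.30 and −0.96 in AdCre. Those of Fgf18 were 0.67, 0.36 and −0.10 in AdGFP and −0.15, 0.07 and −0.85 in AdCre. In both genes, as in the markers, AdCre replicate 3 was the lowest culture, and so it was for Fgf9 (−0.51) and Fgf13 (−0.47). All 10 cardiomyocyte markers were lower in AdCre on average, with a median log2 fold change of −0.80, and 0 passed without and 5 with the replicate block. The part of this difference in the values of Fgf16 and Fgf18 was not tested.

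Fgf1, the acidic FGF that leaves cells without a signal peptide, was the most abundant of the 10 (chr18:38838673-38929472, minus strand). It was listed at 19.4, 29.1 and 22.7 FPKM in AdGFP and at 20.1, 24.7 and 19.5 FPKM in AdCre. The groups overlapped fully and the log2 fold change was −0.13 (SE 0.18, 95% interval −0.56 to 0.29, limma adjusted p = 0.88). Its sign turned to 0.022 without AdGFP replicate 2.

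Fgf2, the basic FGF, lies on chr3:37348346-37410108, plus strand. It was measured at 5.58, 6.82 and 13.2 FPKM in AdGFP and at 10.6, 6.82 and 9.15 FPKM in AdCre, so every AdCre culture fell within the AdGFP range. The log2 fold change was 0.13 (SE 0.33, 95% interval −0.65 to 0.91, limma adjusted p = 0.948), and it turned to −0.12 without AdGFP replicate 1 and to −0.010 without AdCre replicate 1. Of its exon bases, 9.44% lie opposite exons of Nudt6, the known antisense partner of Fgf2, and 3.76% are shared on the same strand with Gm43439. The strand setting of the counting is not given in the sources used here, so reads in the shared parts cannot be assigned to 1 of these genes.

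Fgf9 and Fgf7 had the lowest mean levels of the 10 genes. Fgf9, of the same subfamily as Fgf16, was measured at 0.731, 0.568 and 0.785 FPKM in AdGFP and at 0.450, 0.758 and 0.388 FPKM in AdCre, on 50 to 91 reads (chr14:58070547-58112720, plus strand). AdCre replicate 2 lay among the AdGFP cultures and the other AdCre cultures below them, with a log2 fold change of −0.36 (SE 0.34, limma adjusted p = 0.806) that ran from −0.61 without AdCre replicate 2 to −0.20 without AdCre replicate 3. Fgf7, the keratinocyte growth factor, which signals from mesenchyme to the epithelial form of FGFR2, was measured at 0.237, 0.364 and 0.575 FPKM in AdGFP and at 0.356, 0.525 and 0.433 FPKM in AdCre (chr2:126034658-126091185, plus strand). It did not reach the level filter and rested on 19 to 46 reads, where counting alone gives an error of 22.9% at the lowest count. Without the filter its log2 fold change was 0.18 (95% interval −0.74 to 1.09, limma adjusted p = 0.908).

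Fgf12 and Fgf13 were both lower in AdCre in all 3 same-number comparisons, which did not hold for the related Fgf11, described with the other ligands. Fgf13, known as the main intracellular FGF of the mouse heart though lower than Fgf11 in each of these cultures, was measured at 7.20, 8.29 and 7.65 FPKM in AdGFP and at 5.76, 6.87 and 4.78 FPKM in AdCre, on 532 to 845 reads (chrX:59062145-59568071, minus strand). It was the only one of the 10 whose groups did not overlap, where 15.4% of all tested genes did not overlap and 8.02% did so with AdCre lower. The means were 7.71 ± 0.549 and 5.80 ± 1.05 FPKM (SD, n = 3 each), so AdCre stood at 75.2% of AdGFP. The log2 fold change was −0.42 (SE 0.16, 95% interval −0.79 to −0.04, limma adjusted p = 0.447), and the within-number differences were −0.32, −0.27 and −0.67. The exact two-sided permutation test over samples gave p = 0.1, the smallest value that 3 against 3 allows.

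Fgf12 (chr16:28160098-28753068, minus strand) was the lower of the pair, at 1.59, 1.32 and 2.70 FPKM in AdGFP and 1.04, 0.568 and 1.40 FPKM in AdCre, on 91 to 413 reads. AdCre replicate 3 lay just above AdGFP replicate 2, and AdGFP replicate 3 was far above the other 5 cultures. The means were 1.87 ± 0.734 and 1.00 ± 0.418 FPKM (SD, n = 3 each), so AdCre stood at 53.7% of AdGFP. The log2 fold change of −0.85 (SE 0.38, 95% interval −1.76 to 0.06, limma adjusted p = 0.519) was close to that of Fgf16, and with a pseudocount of 1 the value of Fgf12 was −0.51 against −0.56 for Fgf16. Without AdCre replicate 2 it was −0.53, and without AdGFP replicate 3 −0.56. Its within-number differences were −0.57, −1.08 and −0.90. The blocked limma fit gave an adjusted p of 0.0552 and the blocked voom fit 0.0144. The level of Fgf12 relative to Fgf13 was 24.4 ± 9.93% in AdGFP and 18.5 ± 10.6% in AdCre (SD, n = 3 each, exact two-sided permutation p = 0.5, adjusted over 4 ratios 0.667), and it was lower in AdCre in all 3 same-number comparisons. The ratio tests do not use the pairing.

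The promoter windows searched here were taken from the RefSeq table (GRCm38.p6), 13 windows in all, each the 250 bases before an annotated start. They came from 7 of the 10 genes, and whether the table holds windows for the other genes is not shown here. The windows below are shown for genes that were lower in all 3 same-number comparisons, and were chosen to display the AP-1 matches beside 1 window in which no motif was found. Capitals mark the motif, and each window is written 5′ to 3′ on the strand of the gene.
Fgf12 (chr16:28446076-28446325, minus strand): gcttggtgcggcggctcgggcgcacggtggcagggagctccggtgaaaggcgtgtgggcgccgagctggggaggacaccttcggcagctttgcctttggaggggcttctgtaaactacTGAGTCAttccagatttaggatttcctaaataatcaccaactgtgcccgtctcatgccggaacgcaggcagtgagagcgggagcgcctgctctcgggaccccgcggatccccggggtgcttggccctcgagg
Fgf13 (chrX:59166089-59166338, minus strand): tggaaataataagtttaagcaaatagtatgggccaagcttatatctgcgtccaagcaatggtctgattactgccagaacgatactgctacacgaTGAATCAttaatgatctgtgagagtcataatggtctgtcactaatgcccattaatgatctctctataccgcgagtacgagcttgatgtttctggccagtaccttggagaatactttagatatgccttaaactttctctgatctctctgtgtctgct
Fgf18 (chr11:33147401-33147650, minus strand): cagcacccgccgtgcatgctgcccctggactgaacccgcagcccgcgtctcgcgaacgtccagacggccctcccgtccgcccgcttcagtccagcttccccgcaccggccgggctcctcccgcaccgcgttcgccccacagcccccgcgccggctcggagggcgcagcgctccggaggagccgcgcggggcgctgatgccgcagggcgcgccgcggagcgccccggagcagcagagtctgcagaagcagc

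On both strands 8 motifs were searched: the AP-1 site TGANTCA, the cyclic AMP element TGACGTCA, the ETS site CCGGAAGT, the E-box CACGTG, the MEF2 site in a form with a run of T and in a form with an A, the TATA box TATAAA and the core of the serum response element. Every match of the MEF2 form with an A also holds a match of TATAAA on the other strand, and the other motifs were not nested in each other. AP-1 sites stood in 2 of the 13 windows, the Fgf12 window printed, which is 1 of 4 for that gene, and the Fgf13 window printed, also 1 of 4, ending 125 and 149 bases before the start, as TGAGTCA and TGAATCA. A further Fgf13 window, chrX:59585573-59585822, held the MEF2 form with a run of T, read on the other strand and ending 142 bases before the start. An AP-1 match stood in 6.75% of all 32851 RefSeq promoter windows and the MEF2 form with a run of T in 0.103%. The Fgf18 window, in which none of the 8 motifs was found, was 77.2% G and C, the highest of the 13, and the Fgf13 window with the AP-1 match was the lowest at 40.4%.

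**Figure D2:**
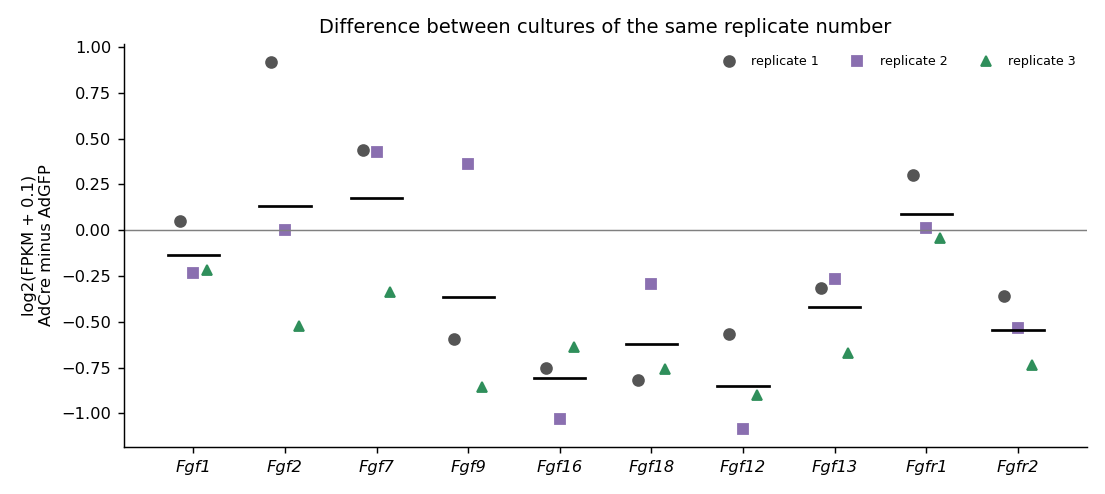
Difference in log2(FPKM + 0.1), AdCre minus AdGFP, between cultures of the same replicate number (symbols) for each of the 10 FGF genes, with the mean as a black bar. For Fgf12, Fgf13, Fgf16, Fgf18 and Fgfr2 all 3 points lie below 0, and for no gene do all 3 lie above 0.

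Neither receptor passed the test in the limma fits without or with the block. Fgfr1 (chr8:25513654-25575718, plus strand), the receptor usually ascribed to cardiac myocytes and also abundant in fibroblasts, was measured at 10.2, 12.2 and 17.0 FPKM in AdGFP and at 12.6, 12.2 and 16.5 FPKM in AdCre. The groups overlapped fully, with a log2 fold change of 0.09 (SE 0.21, 95% interval −0.42 to 0.60, limma adjusted p = 0.944). The sign turned to −0.074 without AdGFP replicate 1 and to −0.046 without AdCre replicate 3.

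Fgfr2, whose splice forms divide between epithelium and mesenchyme, was measured at 2.90, 3.16 and 5.86 FPKM in AdGFP and at 2.24, 2.15 and 3.47 FPKM in AdCre, on 573 to 1491 reads. AdCre replicate 3 lay above AdGFP replicates 1 and 2, and the other AdCre cultures lay below every AdGFP culture. The log2 fold change was −0.55 (SE 0.31, 95% interval −1.28 to 0.19, limma adjusted p = 0.629), and the within-number differences were −0.36, −0.53 and −0.74. Without AdGFP replicate 3, the highest culture, the log2 fold change was −0.24. The blocked limma fit gave an adjusted p of 0.0608 and the blocked voom fit 0.0164. The annotated gene (chr7:130162451-133123350, minus strand) runs across its neighbour Ctbp2, and 3.04% of its exon bases are also exon of Ctbp2 on the same strand. The table does not separate splice forms.

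Within each culture Fgfr2 stood at 28.5%, 26.0% and 34.5% of the level of Fgfr1 in AdGFP and at 17.8%, 17.6% and 21.1% in AdCre. All 3 AdCre ratios lay below all 3 AdGFP ratios, with means of 29.7 ± 4.41% and 18.8 ± 1.97% (SD, n = 3 each). The change of the ratio was −0.65 on the log2 scale. The exact two-sided permutation test gave p = 0.1, the smallest value possible, and 0.4 after adjustment over the 4 ratios examined. With 3 against 3 this test cannot reach 0.05, so it cannot decide whether the ratio differed. A ratio within a culture does not depend on how that culture was scaled. The ratios were chosen after the values were seen.

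The other ratios overlapped between the groups. Fgf16 stood at 395 ± 189% of the level of Fgf9 in AdGFP and at 283 ± 122% in AdCre (SD, n = 3 each, exact two-sided permutation p = 0.5). Fgf2 stood at 36.8 ± 18.8% of Fgf1 in AdGFP and at 42.5 ± 13.2% in AdCre (SD, n = 3 each, exact two-sided permutation p = 0.8).

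**Figure D3:**
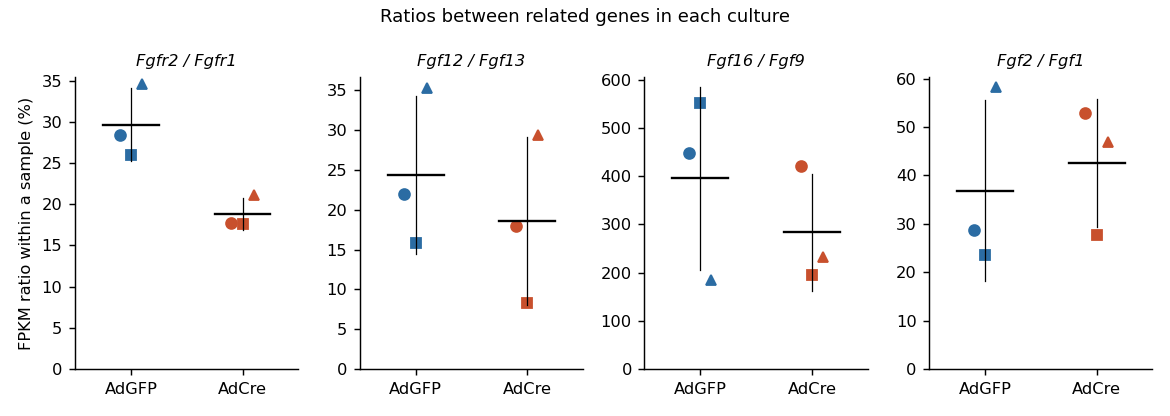
FPKM of one FGF gene as a percentage of another in the same culture, for 4 pairs of related genes, with AdGFP in blue and AdCre in orange, the mean as a black bar and the SD as a thin line (n = 3 per group). The groups are separate for Fgfr2 over Fgfr1 (26.0% to 34.5% against 17.6% to 21.1%) and overlap for the other 3 ratios.

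Fgf12 and Fgfr2 were ordered across the cultures differently from Fgf16 and Fgf18. Both were highest in AdGFP replicate 3, with deviations from their 6-sample means of 1.00 for Fgf12 and 0.89 for Fgfr2, and both were lowest in AdCre replicate 2, at −1.07 and −0.51. AdGFP replicate 3 was also the highest culture of Fgf2 (0.66), Fgf7 (0.43), Fgf9 (0.35) and Fgfr1 (0.36) and of the fibroblast marker mean (0.61). The mean deviation of the 8 epicardial and mesothelial markers was likewise highest in AdGFP replicate 3 (1.20) and lowest in AdCre replicate 2 (−0.89). Krt19 of this list ran the other way in AdGFP, from 133 FPKM in replicate 1 and 33.8 in replicate 2 to 17.3 in replicate 3. Upk3b and Upk1b were lowest in AdGFP replicate 1 (3.92 and 5.29 FPKM) and Tbx18 in AdCre replicate 1 (12.8 FPKM). The rest of the list was lowest in AdCre replicate 2. The summed level of these 8 markers was 195, 137 and 294 FPKM in AdGFP and 131, 108 and 161 FPKM in AdCre, and 7 of the 8 were lower in AdCre on average, 0 called without and 2 called with the replicate block. Fgfr1 was highest in AdGFP replicate 3 and AdCre replicate 3, where the fibroblast marker mean was highest too (0.61 and 0.24). The part of these cell type markers in the values of Fgf12, Fgfr1 and Fgfr2 was not tested.

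All 7 tested macrophage markers and all 10 endothelial markers were higher in AdCre on average, with medians of 0.51 and 0.38, and 2 and 4 of them were called with the replicate block and 0 without. The endothelial sums were 101 to 155 FPKM in AdGFP and 146 to 215 FPKM in AdCre, and the macrophage sums, mostly Lyz2, were 49.5 to 272 FPKM and 87.8 to 343 FPKM. Mural markers had a median of 0.09, with 5 higher and 3 lower. Of the 6 Schwann and neuronal markers 3 were tested, with 2 higher and 1 lower and 0 called. Red blood cell markers were all under the filter, with 2 of 5 at 0 in all cultures.

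**Figure D4:**
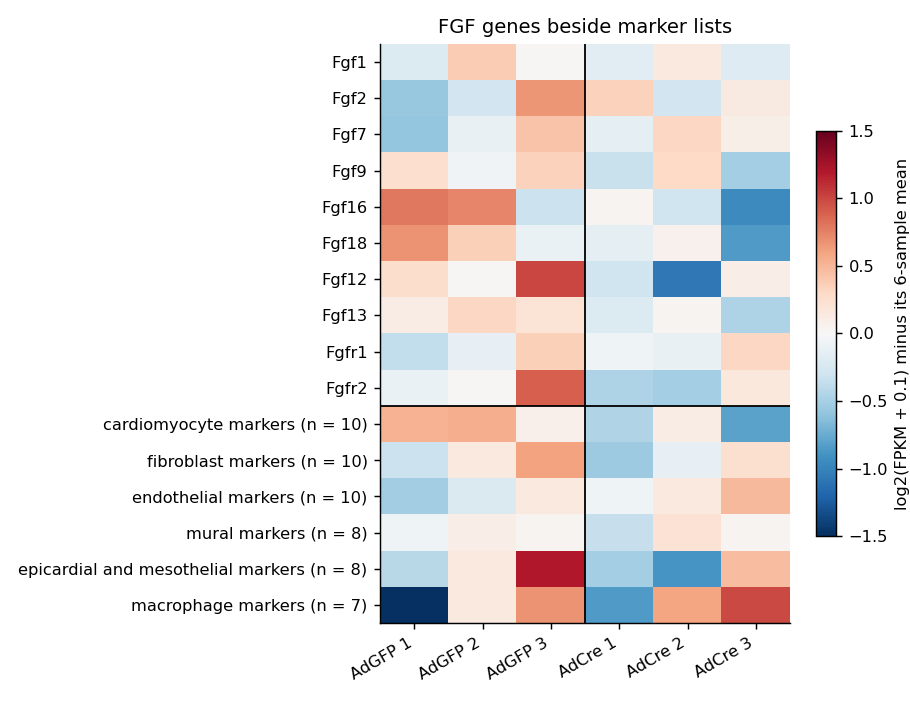
Deviation of log2(FPKM + 0.1) from its 6-sample mean (colour, red above and blue below) for the 10 FGF genes and, below the line, the mean over the tested markers of 6 cell types, with 1 column per culture. Fgf9, Fgf13, Fgf16 and Fgf18 share their lowest culture, AdCre replicate 3, with the cardiomyocyte markers, and Fgf12 and Fgfr2 share their highest culture, AdGFP replicate 3, with the epicardial and mesothelial markers, as well as with Fgf2, Fgf7, Fgf9, Fgfr1 and the fibroblast markers.

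Fgf13 had the smallest p of the 9 tested genes in the fit without a block, and the genes most like it across the 6 cultures were Txnip, Slc37a4 and Ankrd24, with Pearson correlations of log2(FPKM + 0.1) of 0.996, 0.989 and 0.986. Txnip encodes an inhibitor of thioredoxin that responds to glucose, and Slc37a4 the glucose 6-phosphate transporter of the endoplasmic reticulum. Txnip was measured at 126, 149 and 140 FPKM in AdGFP and at 91.5, 113 and 73.6 FPKM in AdCre. These are the top of all tested genes over 6 points that share their libraries and 2 group means, so the correlations describe these cultures and no more.

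**Figure D5:**
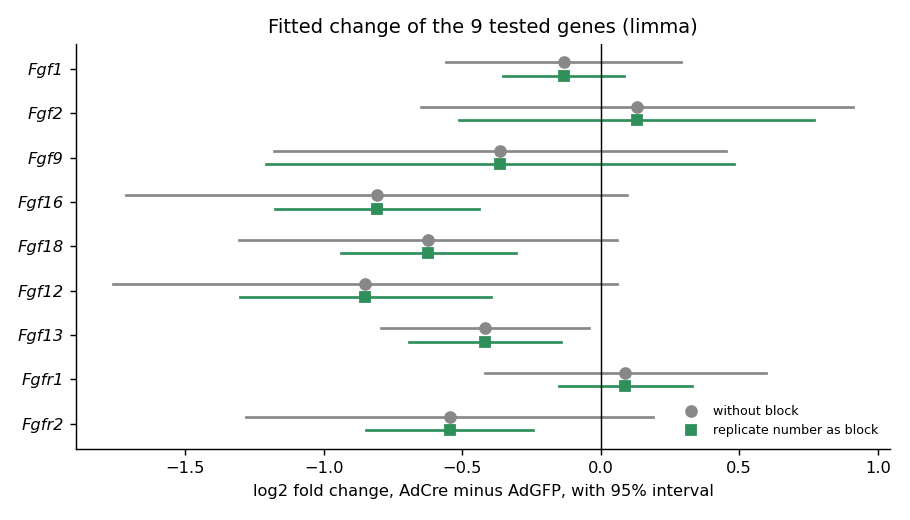
Log2 fold change, AdCre minus AdGFP, of the 9 tested FGF genes with the 95% interval of the limma fit without a replicate term (grey circles) and with the replicate number as a block (green squares). Without the block the interval of Fgf13 alone lies below 0. With it the intervals of Fgf12, Fgf13, Fgf16, Fgf18 and Fgfr2 do, and of these Fgf16 and Fgf18 passed the adjusted threshold.

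The rest of the pathway was read from 6 lists of 93 genes, of which 70 were tested. Without the block 0 of the 70 were called, and the voom fit also called 0. An unadjusted p under 0.05 in the limma fit without the block was found for 11, against 10.2% of all tested genes. With the block 5 were called, 2 higher and 3 lower, which is 7.14% against 6.15% of all tested genes. These calls also moved with the settings. With the block, voom called 17 (12 higher, 5 lower) and rescaling to TPM gave 8 (6 higher, 2 lower). Across all genes these fits called 1741 of 13788 and 875 of 13794. With the block, 0 of the 70 were called without replicate 3, without the trend or without the filter. Across all genes those fits called 1, 0 and 17, in that order. Of the 14 other FGF ligands only Fgf11, Fgf21 and Fgf23 reached the filter, and none was called. Fgf11, a further intracellular FGF, had the smallest blocked p, at 16.4, 16.7 and 9.61 FPKM in AdGFP and 8.27, 18.5 and 6.49 FPKM in AdCre (log2 fold change −0.47, SE 0.41, limma adjusted p = 0.784, and 0.238 with the block). Fgf20, of the subfamily of Fgf9 and Fgf16, was at 0 in all cultures.

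Among the other receptors and co-receptors Fgfr3, Fgfr4 and Fgfrl1 were tested and none was called. Fgfr4 had the smallest blocked p, at 1.07, 0.657 and 0.309 FPKM in AdGFP and 1.23, 0.962 and 0.937 FPKM in AdCre (log2 fold change 0.67, SE 0.41, limma adjusted p = 0.66, and 0.237 with the block). The decoy-like receptor Fgfrl1, which lacks a kinase, stood at 8.01 to 13.7 FPKM across the 6 cultures, above Fgfr2 in every one.

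Of 23 tested genes for heparan sulfate and FGF carriers 14 were higher and 9 lower, and Sdc1, the cell-surface proteoglycan syndecan-1, was called as higher with the block alone. It was measured at 23.2, 29.9 and 29.8 FPKM in AdGFP and 34.2, 36.2 and 42.3 FPKM in AdCre, without overlap (log2 fold change 0.45, SE 0.15, limma adjusted p = 0.385, and 0.0443 with the block). The 18 adaptor genes divided into 8 higher and 10 lower, with Grb14 and Gab1 called as lower with the block. Grb14, an adaptor that restrains signalling by insulin and FGF receptors, was measured at 6.07, 11.7 and 8.27 FPKM in AdGFP and 1.79, 4.59 and 2.48 FPKM in AdCre. All 3 AdCre cultures lay below all 3 AdGFP cultures (log2 fold change −1.58, SE 0.37, limma adjusted p = 0.263, and 0.0093 with the block). Gab1, the docking protein that recruits SHP2 and PI3 kinase, stood at 13.1 to 16.7 FPKM in AdGFP and 9.17 to 12.3 FPKM in AdCre (log2 fold change −0.51, SE 0.15, limma adjusted p = 0.341, and 0.0485 with the block).

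The 13 tested feedback and target genes divided into 8 higher and 5 lower, with Etv4 called as higher and Flrt2 as lower with the block. Etv4, an ETS transcription factor induced by MAP kinase signalling, was measured at 5.74, 3.53 and 3.27 FPKM in AdGFP and 15.2, 6.99 and 10.1 FPKM in AdCre (log2 fold change 1.32, SE 0.32, limma adjusted p = 0.287, and 0.0145 with the block). The study itself picked out Etv4 from these libraries, so its direction is not independent evidence. Flrt2, a membrane protein that binds FGF receptors, was measured at 15.5, 18.5 and 31.5 FPKM in AdGFP and 7.78, 11.0 and 17.3 FPKM in AdCre (log2 fold change −0.87, SE 0.35, limma adjusted p = 0.481, and 0.0132 with the block). Of the partners of the intracellular FGFs 10 of 18 were tested, 7 higher and 3 lower, and none was called.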

How the data were processed

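RNA of 6 cultures (3 AdGFP, 3 AdCre, labelled as biological replicates) was selected with poly-T beads and primed with random hexamers. The deposited values are FPKM per gene made by the authors; the submitters' processing notes name fastp, STAR 2.5, HTSeq 0.6.1 and the build mm10, and the annotation and the strand setting are not given in the sources used here. Of 54532 gene identifiers 54495 matched GENCODE release M21 and 37 did not. FPKM times exon length fell on whole steps within 0.02 for 97.2% to 97.4% of genes under 1000 reads, which gave the reads behind each value (25280637 to 32433218 per library); the values of Fgf1 did not fall on such steps, so no reads are given for it.

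Values were tested as log2(FPKM + 0.1) with limma 3.58.1 (R 4.3.3; two-sided, intensity trend) over 13794 genes whose mean reached 0.5 FPKM, with Benjamini-Hochberg adjustment over all of them and a call at an adjusted p under 0.05. A fold change on this scale understates the change of genes near the pseudocount. Single ratios were compared by exact permutation in scipy 1.17.1. The study's methods state no test for these values. Neither the labels nor the methods say what a replicate number marks, so the fit without a block was the main one. Deviations from the group means correlated at 0.568, 0.268 and 0.506 between samples of the same number and at −0.497 to 0.036 otherwise, so equal numbers were treated as pairs and the blocked fit is given where it changes a call. Alternatives were other pseudocounts, filters and scalings, no trend, left-out samples and voom on the recovered reads.

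The 10 genes, the pathway lists and the marker lists were chosen with earlier results of these data known. Named in the text are the 10 genes, in each pathway list the genes called in either fit (at most 5) or else the 1 with the smallest blocked p, the 3 genes most correlated with the FGF gene of smallest p, and markers that made up most of a printed list sum in some or all cultures (Actc1, Col1a1, Lyz2 and Krt19, the last in AdGFP replicate 1 and AdCre replicates 1 and 2). Fgfrl1, Fgf20, Upk3b, Upk1b, Tbx18 and the genes under other observations were named after their values were seen. For the partners of the intracellular FGFs no single gene is reported here. Counting intervals cover counting error only.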

Additional observations from a re-analysis of the deposited data

How the results depend on the processing

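The calls turned on the replicate block. Of the 9 FGF genes 0 were called without it under every alternative run; with it 2 were called, and 2 by voom on recovered reads with the block (Fgf12 and Fgfr2, log2 fold changes −0.83 and −0.52), 1 after rescaling to TPM with the block (Fgf16, adjusted p = 0.0496), 1 with a pseudocount of 1 and the block (Fgf16, adjusted p = 0.048), and 0 with the block and no filter, no trend or any replicate number left out. In the limma fit on log2 FPKM the block moved no fold change with all samples in, and changed no other FGF call. The pathway lists held 0 calls without and 5 with the block, 3 to 6 with the block when replicate 2 or 1 was left out and 0 without replicate 3, 17 by voom with the block (12 higher, 5 lower), 8 after TPM with the block (6 higher, 2 lower), 5 with a pseudocount of 1 and the block, and 0 with the block and no filter or no trend. Over all genes 1 was called, 3 with a pseudocount of 1, 0 without the filter, 4 without the trend, 0 to 2 when single samples were left out, 0 by voom, 848 with the block, 149 to 772 with the block without replicate 2 or 1 and 1 without replicate 3, 1741 by voom with the block (1002 higher, 739 lower), 875 after TPM with the block (538 higher, 337 lower, against 364 and 484 as deposited), 784 with a pseudocount of 1 and the block, 17 with the block and no filter and 0 with the block and no trend. Combinations of the block with TPM, pseudocount, filter or trend were chosen after seeing the data. The cause of these moves was not tested. Rescaling to TPM moved the median of all genes from −0.0022 to 0.087 on the log2 scale, and voom to 0.059.

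Signs turned for 3 genes. Over the single samples left out, Fgf1 ran from −0.27 to 0.022, Fgf2 from −0.12 to 0.49 and Fgfr1 from −0.074 to 0.29. Fgf1 turned to 0.022 without AdGFP replicate 2. Fgf2 moved from 0.13 to −0.12 without AdGFP replicate 1, to −0.010 without AdCre replicate 1 and to −0.26 with the block and without replicate 1. Fgfr1 moved from 0.09 to −0.074 without AdGFP replicate 1, to −0.046 without AdCre replicate 3 and to −0.016 with the block and without replicate 1. Fgf12, Fgf13, Fgf16, Fgf18, Fgf9 and Fgfr2 stayed negative in every alternative run, but their size moved with single samples left out: Fgf12 from −1.11 to −0.53, Fgf13 from −0.55 to −0.29, Fgf16 from −1.17 to −0.53, Fgf18 from −0.83 to −0.35, Fgf9 from −0.61 to −0.20 and Fgfr2 from −0.76 to −0.24. Fgf7, Fgf9 and Fgf16 rested on 19 to 133 reads, with a counting error of 22.9%, 14.1% and 15.6% at the lowest count of each.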

Other observations

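Of the 13 tested feedback and target genes of the FGF pathway, 7 were higher and 4 lower in AdCre in all 3 same-number comparisons, and 2 were mixed. Of all tested genes 23.9% were higher and 24.5% lower in all 3. The groups did not overlap for 5 of the 13, against 15.4% of all tested genes. These were Etv4, Etv5, Spred2, Spred3 and Spry4. Apart from Etv4 and Flrt2, none of the 13 passed in the limma fit without or with the replicate block. Those named here were picked out after their values were seen. The 3 Spred genes, which encode inhibitors of RAS signalling, were higher in all 3 comparisons. Spred3 was measured at 2.17, 2.17 and 2.84 FPKM in AdGFP and at 3.09, 3.65 and 3.95 FPKM in AdCre, without overlap (log2 fold change 0.56, SE 0.17, limma adjusted p = 0.35, and 0.0518 with the block). Spred2 did not overlap either (log2 fold change 0.40, SE 0.12, limma adjusted p = 0.338, and 0.0848 with the block), and Spred1 did (log2 fold change 0.19, SE 0.16, adjusted p = 0.782, and 0.255 with the block). Etv5, an ETS factor regulated like Etv4, was measured at 13.2, 12.9 and 11.1 FPKM in AdGFP and at 15.9, 15.7 and 15.6 FPKM in AdCre, and the groups did not overlap (log2 fold change 0.35, SE 0.11, limma adjusted p = 0.374, and 0.0753 with the block). Dusp6, the phosphatase that removes phosphate from ERK, and Spry4 were higher in all 3 comparisons as well, with log2 fold changes of 0.21 (SE 0.19) and 0.11 (SE 0.11) and blocked adjusted p of 0.177 and 0.47. Spry1, Spry2 and Flrt3 were lower in all 3, with log2 fold changes of −0.25 (SE 0.31), −0.37 (SE 0.23) and −0.34 (SE 0.30) and blocked adjusted p of 0.125, 0.0632 and 0.382. Whether the Sprouty genes differed from each other was not tested.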
